A study of Arabidopsis thaliana with 6 samples.

Results

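Far intergenic regions were defined as listed regions of SOC1 chromatin immunoprecipitation sequencing (ChIP-seq) whose centre lay in no annotated gene and more than 1 kb from both flanking genes, and that were not within 3 kb upstream of a gene by its strand. By this rule, which used the deposited positions and no read count, 1118 of the 24032 listed regions were far intergenic. SOC1, a transcription factor of the MADS-domain family, promotes flowering, and ChIP-seq counts the DNA fragments that come down with it.

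The tagged group was gSOC1-GFP, a genomic SOC1 copy fused to GFP and driven by the SOC1 promoter (SOC1p:gSOC1-GFP;soc1-2, line #7). The control was the same kind of genomic copy without GFP (SOC1p:gSOC1;soc1-2, line #9). Both groups carried the soc1-2 mutation of the endogenous gene, each came from 1 transgenic line, and each had 3 libraries. Apices were collected at zeitgeber time 4 from plants grown for 15 short days and then 3 long days. An anti-GFP antibody was used, so the untagged libraries gave the background. Titles number the libraries 1 to 3 in each group, and whether these were separate harvests is not stated in the labels, so p-values describe the spread between these libraries, which may be technical. The apex holds several cell types, so strong occupancy in few cells and weak occupancy in many cells cannot be told apart.

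MADS-domain factors bind DNA as dimers or larger complexes at short A/T-rich motifs called CArG boxes. In plants most mapped binding of such factors lies close to transcription start sites, and elements kilobases away from a gene are harder to link to a target. The compact Arabidopsis genome leaves few gaps between genes that are wide enough to hold a region of the kind described here. Sequences of the regions are not printed because no genome was used here.

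Among the far intergenic regions, 18 were called as enriched in gSOC1-GFP by the authors' measure. Their flanking genes included the flowering repressor TOE1, the carpel gene SPT, the anthocyanin regulators MYB75 and MYB90 and the abscisic acid hydroxylase gene CYP707A3. A region was called where the authors' false discovery rate (FDR), which set each tagged library against the untagged library of the same number, was below 0.05 in all 3 replicates. The 18 called regions were 1.61% of the far intergenic set, beside 1.12% of all listed regions. For comparison, 66 of 5021 distal promoter regions (1.31%), which lay 1 to 3 kb upstream of a gene and were centred in no gene, were called. Of the 2114 distal promoter regions with no gene within 1 kb, 31 (1.47%) were called. No set test was applied to these shares. With the FDR met in at least 2 replicates the far intergenic number was 37 (3.31%, beside 2.62% of all listed regions and 3.31% of the 2114). By single replicate, 113 far intergenic regions (10.1%) met the FDR in replicate 1, 35 (3.13%) in replicate 2 and 37 (3.31%) in replicate 3, beside 10.1%, 2.86% and 3.16% of all listed regions.

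Over the 18 called regions the median log2 enrichment was 2.74, which is 6.69-fold, in gSOC1-GFP over untagged chromatin. Log2 enrichment here is the log2 ratio of reads scaled to each library's total over the listed regions, with a prior count of 1 read, averaged over the 3 same-numbered pairs. The median SD over the pairs was 0.97, and the regions ranged from 0.92 to 5.34. The size depends on the prior count. With 10 in place of 1, scaled the same way, the median of the 18 was 1.69 (3.22-fold) and the range was 0.76 to 3.57. The highest value, at the ERF38 region, fell from 5.34 to 3.57. In 17 of the 18 regions every gSOC1-GFP library lay above every untagged library in scaled reads, a separation found at 8.34% of all listed regions. These regions had been chosen on the FDR of the same libraries, so the values describe them and are not a test.

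**Figure D1:**
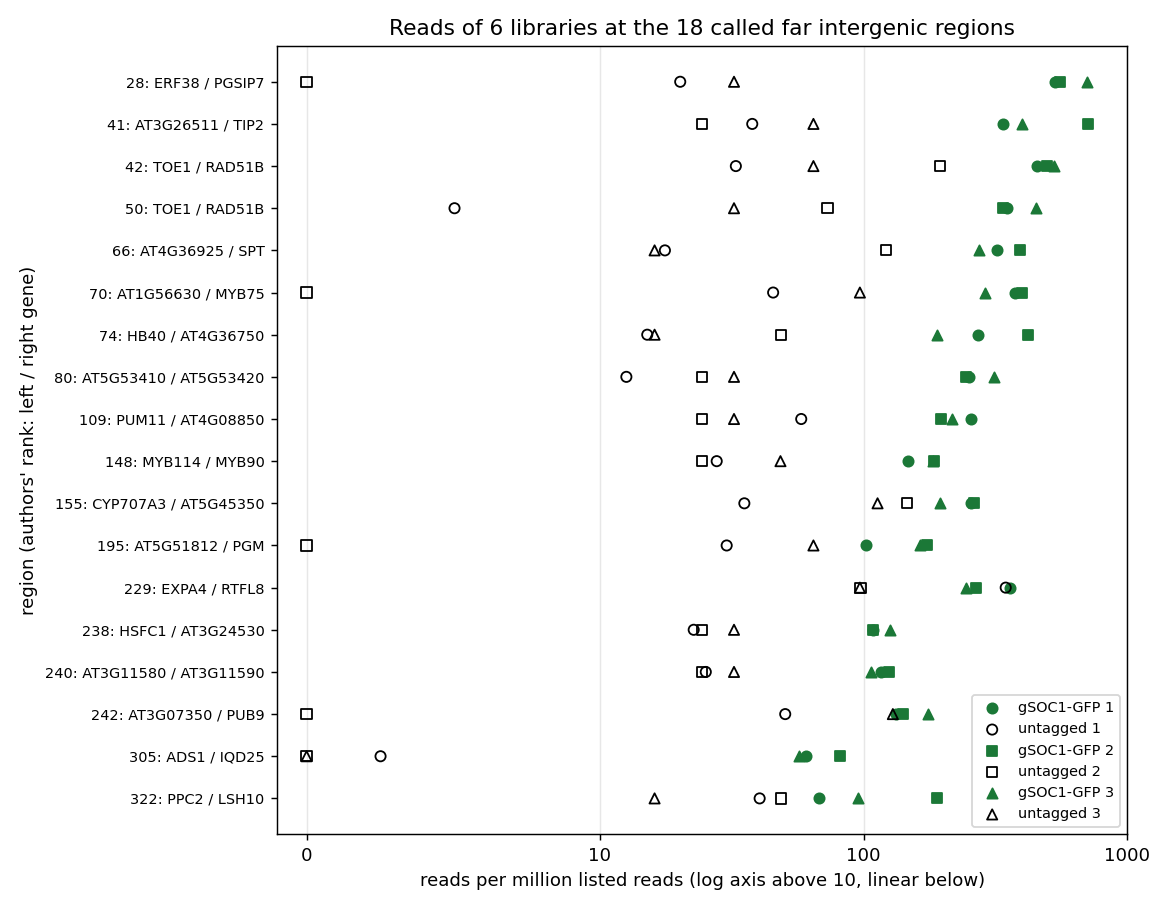
Reads of each library scaled to its total over the listed regions (x axis, log above 10 and linear below) at the 18 called far intergenic regions, named by the authors' rank and their left and right genes (y axis). Filled green symbols are gSOC1-GFP and open symbols untagged, with 1 shape per replicate number. The groups overlap at the EXPA4 and RTFL8 region, where untagged replicate 1 lies among the tagged libraries.

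TOE1 (AT2G28550, named RAP2.7 in the RefSeq table), an AP2-type repressor of flowering that is a target of miR172, had 2 called regions in the gap upstream of it. The nearer region lay 4303 bp upstream of TOE1 on chromosome 2, at positions 12232696 to 12232998 of TAIR10. It held 232, 62 and 118 reads in gSOC1-GFP replicates 1, 2 and 3, and 2, 3 and 2 reads in the untagged libraries. Every tagged library was therefore well above the untagged ones, with a log2 enrichment of 3.71 ± 1.59 (SD, n = 3 pairs). The second region lay 5803 bp upstream, from 12234168 to 12234526, with its centre 1500 bp from the first. It held 302, 91 and 138 tagged against 13, 8 and 4 untagged reads, and its log2 enrichment was 2.65 ± 1.19 (SD, n = 3 pairs). On the other side of the gap, RAD51B, a DNA repair gene, ended 3768 bp from the first region and 2268 bp from the second. RAD51B was thus closer than TOE1 to both. This gap was the only one of the 17 gaps with a called region that held more than 1.

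A called region on chromosome 4, from 17408801 to 17409095, lay 5179 bp upstream of SPT (SPATULA, AT4G36930), a bHLH factor gene of carpel development. Its nearest gene was AT4G36925, which ended 4497 bp away. The tagged libraries held 212, 72 and 72 reads and the untagged libraries 7, 5 and 1, a log2 enrichment of 3.13 ± 1.27 (SD, n = 3 pairs). The 5 untagged reads of replicate 2 made its scaled background the highest of the region. The closest other called region was centred 9992 bp away, 1653 bp upstream of AP2, the floral organ identity gene that is the founding member of the TOE1 family.

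Transcription factor genes also flanked the called regions at ERF38, HB40 and HSFC1, which were grouped by these neighbours after the regions were seen. The best-ranked far intergenic region, of rank 28 in the authors' list, lay downstream of both of its neighbours, 2927 bp past ERF38, an AP2/ERF factor gene, and 2079 bp past PGSIP7. It spanned 15008564 to 15008870 on chromosome 2 and held 353, 102 and 185 tagged against 8, 0 and 2 untagged reads. Its log2 enrichment of 5.34 ± 1.64 (SD, n = 3 pairs) was the highest of the 1118 regions. The untagged count of 0 in replicate 2 raised the mean, which was 4.39 without that pair.

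The region 3526 bp upstream of HB40, a homeodomain-leucine zipper gene linked to bud dormancy, held 180, 77 and 50 tagged against 6, 2 and 1 untagged reads. Its 3 pairs lay close together, at a log2 enrichment of 3.39 ± 0.44 (SD, n = 3 pairs). The region between HSFC1, a heat shock factor gene, and AT3G24530 lay downstream of both and was weaker but even, at 1.98 ± 0.12. HSFC1 ended 1189 bp away, the shortest distance to a flanking gene among the 18 called regions.

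Both loci of the MYB activators of anthocyanin synthesis had a called region. At MYB75 (PAP1, AT1G56650) the region lay 1284 bp downstream of the gene and held 249, 73 and 76 tagged against 18, 0 and 6 untagged reads. Its log2 enrichment was 3.75 ± 2.69 (SD, n = 3 pairs), and 2.25 without the replicate 2 pair, whose untagged count was 0. The region between MYB114 and MYB90 (PAP2) lay 2263 bp downstream of MYB114 and 3203 bp upstream of MYB90, and held 98, 34 and 48 tagged against 11, 1 and 3 untagged reads. In all 3 pairs it was higher in gSOC1-GFP, at a log2 enrichment of 2.28 ± 0.46. These genes were grouped by their known roles after the regions were seen.

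CYP707A3 encodes an abscisic acid hydroxylase that inactivates the hormone. The called region upstream of CYP707A3 lay 2853 bp downstream of AT5G45350, its nearest gene. At 7992 bp from CYP707A3, this region was the farthest upstream of any gene among the 18. It held 170, 48 and 51 tagged against 14, 6 and 7 untagged reads. Replicate 1 was higher, at 2.74 in log2 enrichment, than replicates 2 and 3, at 0.82 and 0.76. The region 4353 bp downstream of TIP2, a tonoplast water channel gene, held 223, 130 and 105 tagged against 15, 1 and 4 untagged reads, a log2 enrichment of 3.42 ± 1.10 (SD, n = 3 pairs). The region 1769 bp downstream of PGM, the plastid phosphoglucomutase gene needed for starch synthesis, had 68, 32 and 43 tagged against 12, 0 and 4 untagged reads. Its mean of 2.84 rested largely on the untagged 0 of replicate 2, since it was 1.47 without that pair.

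The smallest called region by reads lay between ADS1, which encodes a transporter of the MATE family, and IQD25. It held 40, 15 and 15 reads in the tagged and 1, 0 and 0 in the untagged libraries. Pooled over the libraries and scaled to their totals, the tagged to untagged ratio was 31.5, with a 95% exact interval for counting error from 5.47 to 1262, so its size was poorly fixed. Its log2 enrichment was 3.97 with a prior count of 1 and 1.44 with 10. The region 3863 bp upstream of PPC2, a phosphoenolpyruvate carboxylase gene, and 4968 bp upstream of LSH10 held 45, 35 and 25 tagged against 16, 2 and 1. The replicate 1 pair was the lowest of this region, at a log2 enrichment of 0.70 beside 1.89 and 2.32 in its other pairs.

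The region between EXPA4, an expansin gene of cell wall loosening, and RTFL8, a gene of the small ROTUNDIFOLIA peptides, stood apart among the 18. It held 237, 49 and 64 tagged against 137, 4 and 6 untagged reads. Replicate 1 gave a log2 enrichment of 0.05 with these totals, while replicates 2 and 3 gave 1.42 and 1.30, and the groups overlapped. The authors' deposited table nevertheless gives this region an FDR of 0.0328 in replicate 1, so their test did not rest on this scaling of the counts. The pooled ratio was 1.07 (95% exact interval 0.881 to 1.31, counting error only).

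The other 4 called regions had flanking genes whose role is not named here or is less clear for this tissue. Between AT5G53410 and AT5G53420 the log2 enrichment was 3.41 ± 0.47 (SD, n = 3 pairs), and between PUM11 and AT4G08850 it was 2.51 ± 0.39. Between AT3G11580 and AT3G11590, in a gap that is upstream of both genes, it was 1.95 ± 0.30. In these regions the 3 pairs lay close together. Between AT3G07350 and PUB9, a U-box ubiquitin ligase gene, it was 2.35 ± 2.58, and 0.88 without the replicate 2 pair, whose untagged count was 0.

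Across the libraries, single far intergenic regions passed a replicate-based test only in some fits. With the quasi-likelihood test of edgeR and Benjamini-Hochberg adjustment over all 24032 regions, 0 of the 1118 passed, as did 0 (0%) of all listed regions. At an unadjusted p under 0.05 were 54 of the 1118 (4.83%), beside 3.17% of all listed regions, and 14 of the 18 called regions were among the 54. Once the replicate number entered as a block, edgeR gave 8 far intergenic regions higher in gSOC1-GFP (0.716%, beside 0.379% of all listed regions), and 7 of these were among the 18. DESeq2 gave 171 far intergenic regions an adjusted p and passed 8 of these 171, all of them among the 18. Of all listed regions it gave 5822 an adjusted p and passed 94 (1.61% of the 5822). At least 10 reads in at least 3 libraries were held by 252 far intergenic regions. Fitted on regions of that depth alone, edgeR passed 5 of these 252, beside 70 of all 8006 regions so tested (0.874%). With the block it passed 21 of the 252, beside 281 of the 8006 (3.51%). That filter can be met by the 3 gSOC1-GFP libraries alone. A region could thus enter through the group where it is high, so the 5 and the 21 are a description. DESeq2's default filter uses the mean count over all libraries, which the tagged group can raise, so its 8 are likewise a description. The 18 were called on the same libraries as these fits, so the overlaps with them are not independent agreement.

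The regions that passed edgeR with the block were led by the ERF38 region, at an adjusted p of 0.000304 from the edgeR fit with the block. The nearer TOE1 region followed at an adjusted edgeR p of 0.00155, and the farther one missed the threshold at 0.0574. The regions at AT5G53420, HB40, TIP2, SPT and ADS1 had adjusted edgeR p-values of 0.005, 0.00569, 0.0127, 0.015 and 0.015 with the block. The MYB75 region, with its uneven pairs, had 0.0557.

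Regions chosen on the FDR of 2 replicates were also enriched in the remaining replicate, whose FDR the choice did not use. The 20 far intergenic regions past the FDR in replicates 2 and 3 reached a median of 2.50 in the log2 enrichment of replicate 1, with 18 above 0. In replicate 2, the 25 regions chosen on replicates 1 and 3 reached 2.20, with all 25 above 0. In replicate 3, the 28 chosen on replicates 1 and 2 reached 1.58, with 26 above 0. Chosen the same way, all listed regions reached 2.40 (95.3% above 0), 1.85 (89.4%) and 1.33 (83.1%) in replicates 1, 2 and 3, so this is not particular to the far intergenic set. For the other far intergenic regions the medians were 0.40, 0.14 and 0.13, in the same order. The listed regions themselves may have been found with all 3 replicates. The remaining replicate may thus not be independent of the choice, and these values are a description.

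Taken as 1 set, the far intergenic regions held a mean share of the reads that differed little between the groups. They took 4.04%, 3.81% and 4.05% of the listed reads in gSOC1-GFP replicates 1, 2 and 3, and 3.74%, 3.57% and 3.88% in the untagged libraries. The mean was 3.97% ± 0.14 (SD, n = 3) against 3.73% ± 0.15 (SD, n = 3), a difference of 0.236 percentage points (exact two-sided permutation p = 0.2, where 0.1 is the smallest that 3 against 3 libraries allow). The groups overlapped in this share, since untagged replicate 3 lay above gSOC1-GFP replicate 2. Within same-numbered pairs the share was higher in gSOC1-GFP in 3 of 3, by 0.294, 0.238 and 0.177 percentage points (exact two-sided permutation within pairs p = 0.25, the smallest that 3 pairs allow). Wilson 95% intervals, which cover counting error only, ran from 3.72% to 3.90% in gSOC1-GFP replicate 2 and from 3.73% to 4.03% in untagged replicate 3.

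In gSOC1-GFP the 18 held 0.483% ± 0.041 (SD, n = 3) of all reads counted, against 0.0874% ± 0.0047 (SD, n = 3) in the untagged libraries. The other 1100 regions held 3.48% ± 0.18 in gSOC1-GFP and 3.64% ± 0.15 in the untagged libraries (SD, n = 3 each). The 18 had been called for more tagged than untagged reads in these same libraries, so taking them out lowers the tagged share by construction and both values are a description. The ratio of far intergenic to distal promoter reads was 0.177 ± 0.012 in gSOC1-GFP and 0.166 ± 0.018 in the untagged libraries (SD, n = 3 each, exact two-sided permutation p = 0.5), and within pairs it was higher in gSOC1-GFP by 0.0193, 0.00489 and 0.00774 (exact permutation within pairs p = 0.25). Set against the 2114 distal promoter regions with no gene within 1 kb, the ratio had the opposite direction in its means, at 0.456 ± 0.017 against 0.469 ± 0.013 in the untagged libraries (exact two-sided permutation p = 0.4).

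Region by region, the bulk of the far intergenic set lay near no enrichment. The median log2 enrichment was 0.35, beside 0.28 for all listed regions and 0.38 for distal promoter regions with no gene within 1 kb. Below 0 lay 361 of the 1118 regions (32.3%), beside 35.9% of all listed regions. Above 2 lay 57 regions (5.10%, beside 3.57%) and above 3 lay 10 (0.894%, beside 0.512%). The median of replicates 1, 2 and 3 was 0.41, 0.14 and 0.20, beside 0.30, 0.14 and 0.13 for all listed regions. With TMM scaling the medians of all listed regions moved to -0.05, 0.46 and 0.39, and those of the far intergenic regions to 0.09, 0.46 and 0.40, so the level of a single pair depends on the scaling and is read here against all regions.

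**Figure D2:**
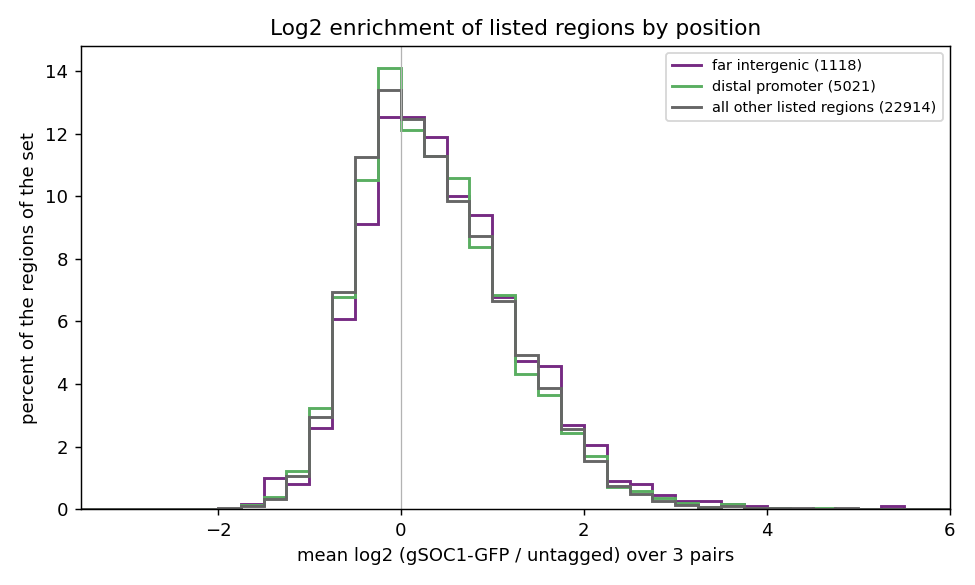
Histogram of the mean log2 ratio of gSOC1-GFP to untagged reads over 3 pairs (x axis) as a percent of the regions of each set (y axis), for the 1118 far intergenic regions, the 5021 distal promoter regions and the 22914 listed regions outside the far intergenic set. The outlines lie almost on each other, and the ERF38 region is the far intergenic one at 5.34.

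Far intergenic regions were shallower than the rest. The median region held 32 reads over the 6 libraries, beside 40 for all listed regions, and was 190.5 bp long, beside 212 bp. Counts of 0 occurred at 460 of the 1118 regions in untagged replicate 2 and at 269 in untagged replicate 3, which limits what a ratio can show at a single region. Length and reads moved together, and so did the calls. None of the 610 regions of up to 200 bp was called (median 20 reads), against 7 of 343 regions over 200 and up to 300 bp (median 50 reads) and 11 of 165 longer regions (6.67%, median 118 reads). In all listed regions the shares called in the same length classes were 0%, 0.702% and 4.08%. Whether length or depth plays a part in the share of far intergenic calls was not tested.

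The called far intergenic regions lay on either side of genes, some upstream and some downstream. Of the 18, 4 lay downstream of both flanking genes, 4 lay upstream of both, and 10 lay upstream of one and downstream of the other. The whole set of 1118 held 292, 230 and 580 regions in these positions, so 1.37%, 1.74% and 1.72% were called, beside 1.12% of all listed regions. The distance to the nearest flanking gene ranged from 1189 to 4916 bp in the called regions, with a median of 2560.5 bp. The whole set had a median of 2522 bp and reached 10917 bp.

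Among the 14 called regions that lay upstream of a gene, the distance to the nearest such gene ranged from 3203 bp at MYB90 to 7992 bp at CYP707A3, with a median of 4466 bp. No called region lay more than 5 kb from both flanking genes, where only 76 regions were listed, so a share of 1.12% would give less than 1 call there. By the deposited gene models, 3 regions lay farthest from any gene among those with at least 30 reads in all. They lay in the gaps upstream of SUC1, a sucrose transporter gene, UFO, a floral F-box gene, and HB34, a homeodomain gene. Their log2 enrichments were 0.16 ± 1.35, -0.69 ± 0.44 and 1.40 ± 0.53 (SD, n = 3 pairs). None of them met the FDR in all 3 replicates. The RefSeq table listed further genes in each of these gaps, 1 at SUC1, 6 at UFO and 3 at HB34. Those at HB34 included the protein-coding AT3G28922. How close they lay to the regions was not looked at.

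**Figure D3:**
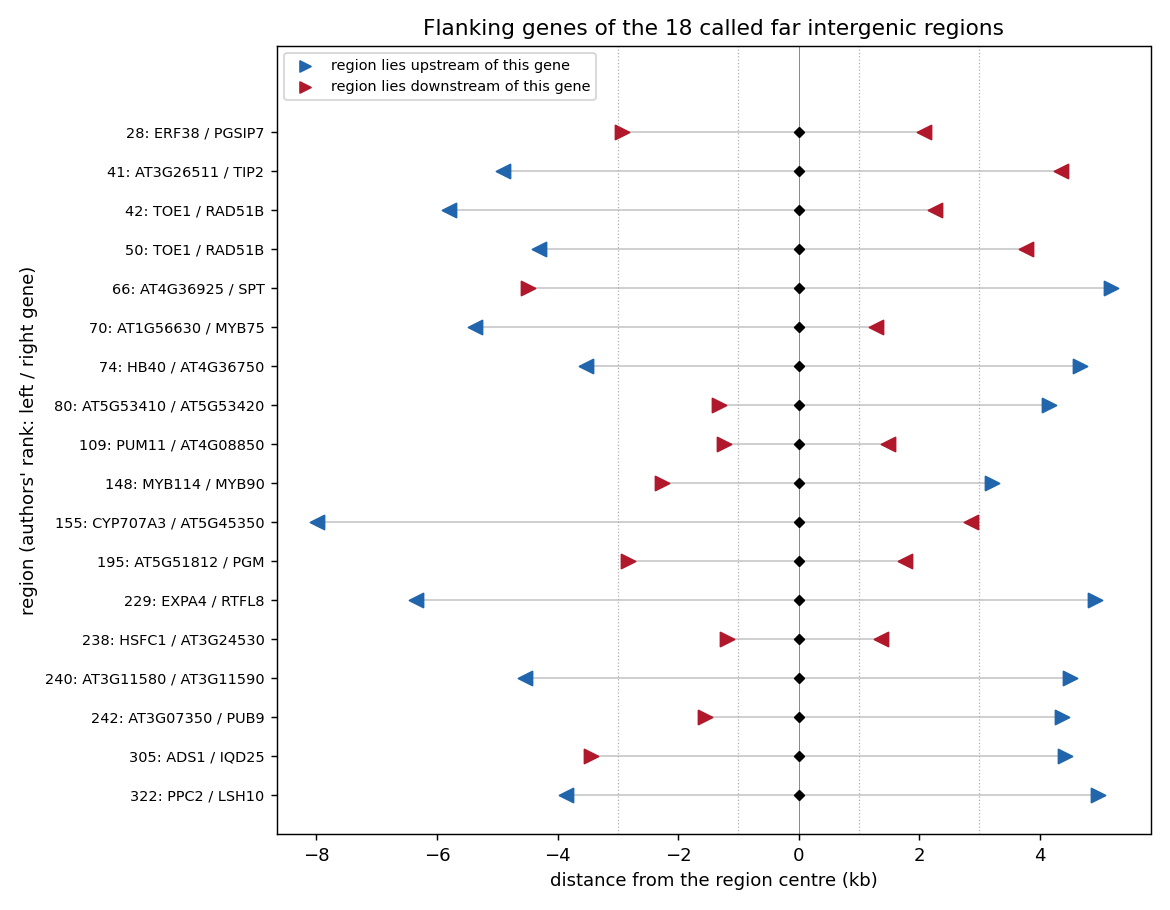
Distance in kb from the centre of each called far intergenic region (x axis, black diamond at 0) to its left and right flanking genes, for the 18 regions named by the authors' rank and genes (y axis). Arrowheads point along the gene's strand, blue where the region lies upstream of that gene and red where it lies downstream, and dotted lines mark 1 and 3 kb. The CYP707A3 region lies farthest upstream, at 7992 bp.

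Far intergenic regions shared gaps. The 1118 regions fell in 828 gaps between genes, of which 211 held 2 or more, up to 5. The 17 gaps with a called region held 9 other far intergenic regions that were not called. A pair of these carried many reads in both groups in replicate 1, and after scaling to the library totals fewer in gSOC1-GFP. In the gap between AT3G07350 and PUB9, the called region at 2350198 to 2350492 on chromosome 3 held 88, 26 and 46 tagged against 20, 0 and 8 untagged reads. The region at 2351257 to 2351596 in the same gap held 211, 14 and 9 tagged against 215, 2 and 4 untagged reads, with log2 enrichments of -0.76, 0.61 and -0.85 in pairs 1, 2 and 3.

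In the gap upstream of AT3G26511, which holds the TIP2 region, the uncalled region at 9718803 to 9719022 held 133, 12 and 13 tagged against 121, 1 and 4 untagged reads, with log2 enrichments of -0.60, 1.30 and -0.36. Near EXPA4, the uncalled region 4035 bp upstream of the gene held 14, 3 and 4 tagged against 2, 0 and 0 untagged reads and did not meet the FDR in any replicate.

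Regions with many untagged reads were looked at in untagged replicate 1, the deepest untagged library. In untagged replicate 1, 29 of the 1118 regions (2.59%, beside 2.89% of all listed regions) held 100 reads or more and together took 31.7% of that library's far intergenic reads. Having been chosen on that count, they had to take a large share there. The same 29 took 6.13% and 5.75% of the far intergenic reads in untagged replicates 2 and 3. In gSOC1-GFP, which the choice did not use, they took 19.0% in replicate 1 against 5.65% and 4.63% in replicates 2 and 3. All listed regions chosen the same way took 15.6%, 5.45% and 4.99% of the gSOC1-GFP reads of their set. In the pairs not used for the choice, 2 and 3, the median log2 enrichment of the 29 was 0.61 and -0.08. The EXPA4 region was the 1 of the 29 that was called (all listed regions so chosen held 8 called of 694).

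The region with the most untagged reads lay 1571 bp downstream of RAP2.4, an AP2/ERF factor gene, on chromosome 1. It held 327, 20 and 31 tagged against 319, 16 and 6 untagged reads, at a log2 enrichment of -0.74 ± 1.04 (SD, n = 3 pairs). It also had the most reads of all far intergenic regions, and its groups overlapped. The next, between AT3G17100 and AT3G17120, had -0.78 ± 0.91, and that 1754 bp downstream of DREB26 had 0.21 ± 0.88. None of these 3 passed the FDR in all replicates. They were named for their untagged reads, the denominator of the ratio, which lowers it.

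**Figure D4:**
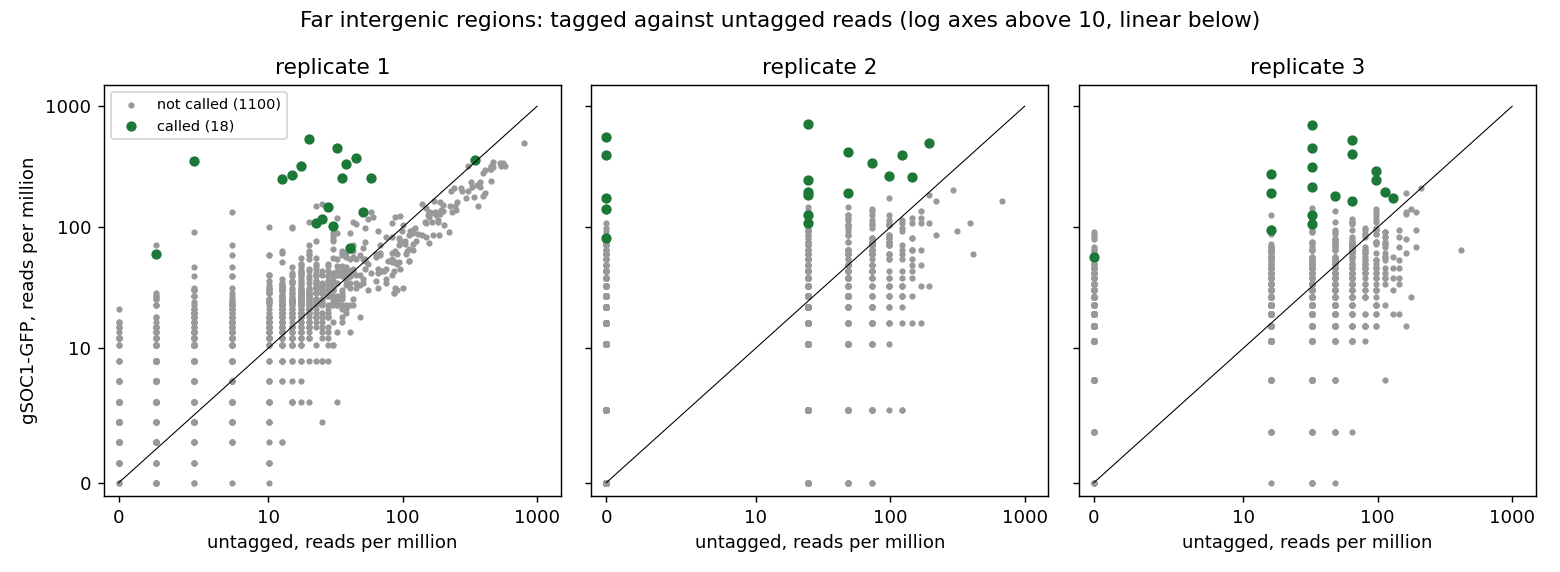
Reads scaled to the listed total of each library, in gSOC1-GFP (y axis) against untagged (x axis), for the 1118 far intergenic regions, 1 panel per replicate, with both axes log above 10 and linear below. Green points are the 18 called regions, grey points the other 1100, and the line marks equal values. In replicate 1 the called EXPA4 region lies on the line.

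A list of 69 flowering genes was matched to the flanking genes. It named 7 of them as neighbours of 10 far intergenic regions, and 2 of the 10 were called, both in the gap at TOE1, beside 1.61% of the far intergenic set and 1.12% of all listed regions. The list was chosen with earlier results of these data known. The next by rank lay 3728 bp upstream of TOE3, another AP2-type repressor, and 1157 bp downstream of DEAR2, its nearest gene. This region held 73, 18 and 37 tagged against 8, 2 and 6 untagged reads. Its log2 enrichment was 1.24 ± 0.90 (SD, n = 3 pairs), and it met the FDR in 1 replicate. The 2 regions upstream of MIR172a, a gene of the microRNA that represses TOE1, had 0.75 ± 0.39 and 0.93 ± 1.66. Those downstream of FT, the mobile flowering signal, had -0.47 ± 1.02 and 0.72 ± 0.82; the former held 22, 12 and 9 tagged against 10, 3 and 7 untagged reads. The regions beside AGL42 (0.66 ± 1.32), TEM1 (-0.08 ± 0.35) and MIR172d (0.14 ± 1.29) did not meet the FDR in any replicate.

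The label of the set holds for the gene models deposited with the table. Of the 1599 distinct flanking genes, 1566 (97.9%) were found in the RefSeq gene table, with 1321 protein-coding genes and 197 pseudogenes among them. For 1077 regions both flanking genes could be placed in the RefSeq order. In 485 of these the RefSeq table listed at least 1 further gene between them, a long noncoding RNA in 340 cases, a transcribed pseudogene in 104 and a protein-coding gene in 65. The called share was 1.03% where such a gene was listed and 1.86% where none was. Among the 16 called regions that could be placed, 5 had a further gene in the gap, such as 4 long noncoding RNA genes between EXPA4 and RTFL8, and 11 had none, the gaps at TOE1, SPT, ERF38 and MYB90 among them.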

How the data were processed

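Chromatin from 6 libraries (3 gSOC1-GFP, 3 untagged gSOC1) was measured over 24032 listed regions. The authors deposited an unnormalized read count per region and library, a Benjamini-Hochberg FDR (a p-value adjusted per replicate pair), a log2 rank product over the replicates and a rank score, as the deposited column definitions state. The log2 column itself was not used. Coordinates are TAIR10, which the submitters' processing notes name. Neither the aligner nor the region caller nor the authors' test is given in the sources used here. The listed reads were 663108, 183668 and 262776 in the tagged libraries and 396326, 41073 and 61963 in the untagged ones. Starts are printed as deposited, whether counted from 0 or 1 is not stated, and ends were computed from start and length.

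Members, lists and tests were chosen with earlier results of these data known. Regions named are the called members, the 3 with the most untagged reads, the 3 with the most reads and the 3 farthest from genes with at least 30 reads. Genes named are their flanking genes and members of a flowering list. Symbols and gene order came from RefSeq (TAIR10.1), used for names and neighbours only. Counts were tested with edgeR 4.0.16 (quasi-likelihood, TMM, Benjamini-Hochberg) in R 4.3.3, with DESeq2 1.42.0 as an alternative. Deviations from the group means correlated at 0.498, 0.123 and 0.139 between same-numbered libraries (replicates 1, 2 and 3), each over the bound of 0.1, so the replicate numbers in the titles were taken to pair the samples. The pair of unlike number made of gSOC1-GFP replicate 3 and untagged replicate 2 reached 0.131, above the 0.123 of replicate 2. The correlations therefore do not show that replicates 2 and 3 are paired. For these the block rests on the numbers in the titles. Shares were compared with exact permutation tests in scipy 1.17.1.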

Additional observations from a re-analysis of the deposited data

How the results depend on the processing

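The number of called far intergenic regions was 11 at an FDR of 0.01, 25 at 0.1 and 37 with the FDR met in at least 2 replicates. Leaving out 1 replicate, which eases the rule by construction, gave from 20 to 28. With no gene within 3 kb on either side it was 8 of 485 regions, and within 5 kb 0 of 76, which are smaller sets by construction. The number of far intergenic regions passed by edgeR rose from 0 to 8 with the replicate block (all listed regions 0 and 91). It was 5 (all 70) with only regions of at least 10 reads in at least 3 libraries, a filter that the 3 gSOC1-GFP libraries alone can meet. With column totals as library sizes it was 1 (all 18), and with DESeq2 it was 8 (all 94). Leaving out single libraries or whole replicates gave from 0 to 6; it was 6 (all 86) without both replicate 1 libraries and 2 (all 51) without untagged replicate 1 alone. Settings added after the data were seen combined the replicate block with the filter (21, all 281), with column totals (14, all 211) or with 1 replicate left out (5, 9 and 7 without replicate 1, 2 and 3, all 71, 119 and 69), compared read shares within pairs, and set the members against distal promoter regions with no gene within 1 kb. The median log2 enrichment was 0.051 with a prior count of 10, beside 0.035 for all regions, and 0.36 with TMM. With that prior count 9 of 24 named regions moved by more than their SD over the pairs. Without a replicate it ranged from 0.28 to 0.39.

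Without the called regions, which were chosen for a tagged excess in the same libraries, the difference in read share was by construction lower, at -0.159 percentage points. It ranged from 0.207 to 0.266 without 1 replicate. The difference in the ratio to distal promoter reads was likewise -0.00701 without the called regions, and -0.0132 against distal promoter regions with no gene within 1 kb. Without 1 replicate it ranged from 0.00632 to 0.0135. The edgeR log2 fold change at the EXPA4 region was -0.013 without gSOC1-GFP replicate 1 and -0.078 without untagged replicate 2, and it reached 2.09 without untagged replicate 1. Where no reason is given above, the cause was not tested. Counts of 0 in untagged replicates 2 and 3 limit single regions, and the replicate 2 pair decides the size at PGM, PUB9 and MYB75.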

Other observations

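Just below the calls stood 19 far intergenic regions that met the authors' FDR in 2 of 3 replicates, with log2 enrichments from 0.52 to 3.24 and a median of 2.24. The 5 called regions of lowest rank ranged from 1.63 to 3.97. A region 3787 bp downstream of IRX12, a laccase gene of lignin synthesis, lay 3307 bp upstream of AT2G38090, its nearest gene. This region held 88, 11 and 38 tagged against 3, 0 and 2 untagged reads. Its log2 enrichment was 3.24 ± 1.07 (SD, n = 3 pairs), and it was the single region outside the 18 that passed edgeR with the replicate block (adjusted p = 0.0324). The region 3022 bp downstream of HB6, a homeodomain-leucine zipper gene, was even over the pairs at 2.24 ± 0.33. That 3869 bp upstream of CIPK7, a protein kinase gene, and 2382 bp downstream of LFR, its nearest gene, was at 1.56 ± 0.88. These regions were named after their values were seen.

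Most called regions, far intergenic or not, had no other called region centred within 10 kb. Of the 18, 3 (16.7%) had one, the pair at TOE1 and the SPT region, beside 22 of the 252 called regions of other kinds (8.73%). The median distance to the nearest called region was 89580 bp for the 18, beside 111734 bp for the 252. On chromosomes 1 to 5 the far intergenic set held 335, 201, 191, 144 and 247 regions, of which 2, 5, 4, 4 and 3 were called.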
